A study of Homo sapiens with 32 samples.

Results

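The expressed ZNF genes are the numbered members of the human zinc finger gene family that reached a set mean level in DMSO, which not every line need reach. A gene counted as a member when its symbol was ZNF followed by a number, with or without a final letter, and its TPM, a read level corrected for transcript length and library depth, summed over its transcripts, averaged at least 5 over the 16 DMSO libraries; ZNF473 was set aside. Of 499 genes with such a symbol, among 18854 genes matched in all, 177 reached the threshold and 322 did not. All 177 also passed the filter on low counts and were tested, among 14318 genes. The members were thus chosen by their measured DMSO level, which is given as a description. ZNF280D at 5.08, ZNF329 at 5.16 and ZNF160 at 5.19 TPM were just inside the threshold, and ZNF823 at 4.98, ZNF75A at 4.85 and ZNF136 at 4.71 TPM were just outside it.

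Most ZNF proteins are built from C2H2 zinc fingers, short folds that hold a zinc ion and read a few bases of DNA each, so that an array of fingers reads a long site. Many also carry a KRAB domain, which binds the corepressor TRIM28 and through it brings the histone methyltransferase SETDB1 and silencing of chromatin, above all at transposable elements. Others have no KRAB domain and act as promoter activators, RNA-binding proteins, ribosome factors or subunits of chromatin complexes. Many ZNF genes lie in clusters on chromosome 19. CDK11, the kinase that OTS964 inhibits, is known for roles in transcription and in activation of the spliceosome.

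RNA was sequenced from 4 human cancer cell lines: A375 (melanoma), Cal51 and MDA-MB-231 (breast carcinoma) and DLD1 (colorectal carcinoma). Each was present with the label G579S, described by the submitters as resistant to CDK11 inhibition, and as wild-type, described as sensitive. The groups were G579S cells in OTS964, G579S cells in DMSO, wild-type cells in OTS964 and wild-type cells in DMSO, with 2 libraries of each in every line and 32 libraries in all. All cells were grown in DMEM with serum, OTS964 was given at 100 nM, and cells were collected after 6 h; no label states that both libraries of any group stem from different cultures, so a p-value here measures spread between samples that may be purely technical. Per library, 16091376 to 29742687 reads were estimated over all transcripts.

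The labels give no clone for the G579S cells and do not name the mutated gene. CDK11B, one of the pair of genes that encode CDK11, stood at 604.9 and 672.2 CPM (read counts scaled to library depth, not to length) in the DMSO libraries of MDA-MB-231 G579S cells, against 61.8 and 56.4 CPM in those of the unmutated MDA-MB-231 cells. In the DMSO and OTS964 libraries of the other 3 lines it lay between 25.5 and 57.3 CPM. Markers went against a label. SOX10, which defines melanocytes and melanoma, stood at 0.938 and 1.63 CPM in DLD1 G579S cells in DMSO, against 737.1 and 695.1 CPM in DMSO libraries with the label DLD1 wild-type. CDX2, an intestinal transcription factor, stood at 96.1 and 96.5 CPM in the same DLD1 G579S libraries, against 2.84 and 3.66 CPM in those labelled DLD1 wild-type. Summed over 9 melanocyte markers, the level was 37.4 to 47.4 TPM in DLD1 G579S libraries and 1231.0 to 1439.2 TPM in those labelled DLD1 wild-type. TYRP1, a melanin enzyme, was at 0 in the DLD1 G579S libraries. Summed over 8 colorectal markers it was 1089.4 to 1255.5 TPM in DLD1 G579S and 24.9 to 46.7 TPM in those with the wild-type label, and CDX1 was at 0 in both. Any contrast of G579S with wild-type inside DLD1 is therefore a contrast of libraries with different lineage markers, and the effect of the mutation and of the cell background cannot be told apart there. In A375 wild-type DMSO libraries SOX10 stood at 582.5 and 600.4 CPM and CDX2 at 0. Whether the libraries labelled DLD1 wild-type are a line apart from A375 was not tested. Counts and tests over the 4 wild-type labels may thus weigh the same cell background repeatedly.

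The members were mostly modestly expressed genes. Their median DMSO level was 9.67 TPM; 98 lay between 5 and 10 TPM, 47 between 10 and 20 TPM and 32 at 20 TPM or above. By a count of fixed residues in their translated coding sequence, 77 carried a KRAB box and 100 did not. The number of C2H2 fingers had a median of 9, with 11 among KRAB members and 6 among the others, and reached 30 in ZNF646. Chromosome 19 held 68 members, 44 of them with a KRAB box. In 6 members, ZNF185, ZNF330, ZNF451, ZNF503, ZNF703 and ZNF839, no finger of the searched pattern was found. ZNF185 is a LIM-domain protein of the actin cytoskeleton that carries the family's name without C2H2 fingers.

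In cells labelled wild-type, OTS964 left most expressed ZNF genes lower. Across the 4 lines, 93 members (52.5%) were lower and 34 (19.2%) higher in OTS964 than in DMSO at an adjusted p under 0.05, and 50 did not pass. Of all 14318 genes tested, 59.1% were called, 30.7% lower and 28.4% higher, and of the 9427 genes at the same DMSO level or above, 73.6% were called, 35.3% lower and 38.3% higher. The share of members called, 71.8%, was thus near that of other genes at such levels, while the split between directions was not. The median log2 fold change of the members was -0.76, with quartiles of -1.61 and 0.35, against a median of -0.07 over all genes tested and 0.05 over genes at 5 TPM or above. A change of at least 2-fold that also passed the threshold was found downward in 75 members (42.4%; 21.8% of all genes tested and 23.0% of genes at 5 TPM or above) and upward in 23 members (13.0%; 11.2% and 13.7%). In bulk libraries, fewer cells with a transcript and less of it per cell cannot be told apart.

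Because the DMSO libraries are a side of this contrast, a gene with a chance high value in DMSO was more likely to be a member. With membership set on the mean over all 32 libraries, 160 genes were members, of which 72 were lower and 39 higher, with a median of -0.44. The 289 tested ZNF genes under the DMSO threshold had 127 lower and 23 higher, with a median of -1.23. Scaling by library totals in place of the trimmed mean of M-values (TMM) moved the median of all genes to -0.65 and that of the members to -1.33, so the gap between them was -0.68 against -0.69. Under that scaling 116 members were lower and 20 higher: 14.7% of the called members were higher (21.9% of called genes overall), against 26.8% (48.1% overall) under TMM. Without the libraries labelled DLD1 wild-type, 87 members were lower and 25 higher, with a median of -0.85. Predicted transcript models held 8.97 to 9.46% of reads in wild-type OTS964 libraries and 11.38 to 12.47% in wild-type DMSO libraries; with curated transcripts alone, 90 members were lower and 33 higher, with a median of -0.87.

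**Figure D1:**
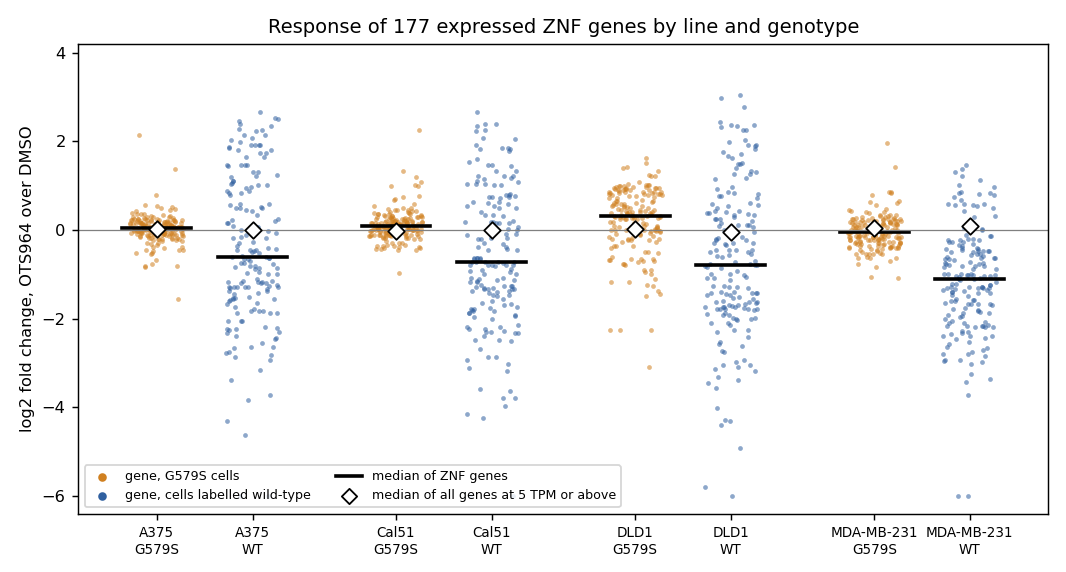
Log2 fold change of OTS964 over DMSO (vertical axis) for each of the 177 expressed ZNF genes (points) in each line and genotype, with the median of the members (bar) and of all genes at 5 TPM or above (diamond); values below -6, found in 3 members, are drawn at -6. The wild-type columns are wide and their member medians lie between -1.11 and -0.61, while the A375, Cal51 and MDA-MB-231 G579S columns stay close to 0.

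Members with and without a KRAB box both leaned downward. Among the 77 KRAB members 43 were lower and 10 higher, with a median log2 fold change of -0.90; among the 100 others 50 were lower and 24 higher, with a median of -0.51. Related families with other name stems, taken at the same DMSO level, gave a mixed picture. Of 7 ZSCAN genes, which carry a SCAN domain, 6 were lower and 1 higher (median -1.22), both ZKSCAN genes were lower, and of 5 ZFP genes 4 were lower and 1 higher (median -1.18). The 24 ZBTB genes, whose products join a BTB domain to zinc fingers, had 7 lower and 8 higher, with a median of 0.12. In MDA-MB-231 alone 14 ZBTB genes were lower and 2 higher, with a median of -0.69. Differences between these families were not tested.

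Library ranges separated for many members. In 61 members all 8 wild-type OTS964 libraries lay below all 8 wild-type DMSO libraries, in 9 they all lay above, and in 107 the ranges overlapped. The same separation held downward in 10.1% and upward in 5.09% of all genes tested, and in 13.4% and 7.54% of genes at 5 TPM or above. Within the lines as labelled, 58 members were lower in each of the 4 and 11 higher in each of the 4, against 13.3% and 13.6% of all genes tested (18.0% and 20.3% at 5 TPM or above). The libraries labelled DLD1 may not add a cell background beyond that of A375, which was not tested.

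**Figure D2:**
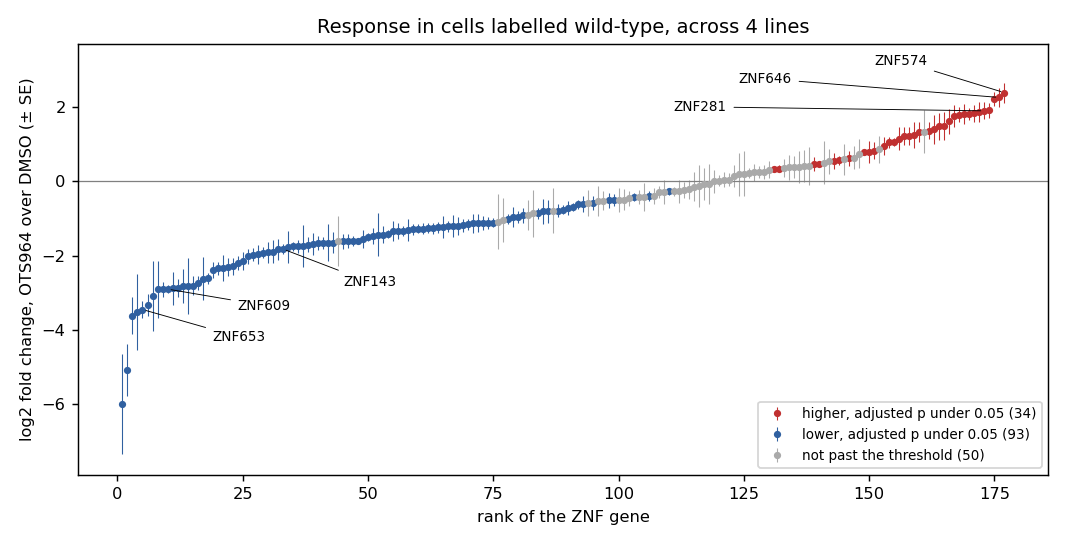
The 177 expressed ZNF genes in order of their log2 fold change in cells labelled wild-type across 4 lines (OTS964 over DMSO, vertical axis, with SE bars). The 93 lower genes form a long arm to the left, the 34 higher genes a shorter arm to the right, and 50 grey points did not pass the threshold.

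The members that were higher in every wild-type line are, with 1 exception, genes without a KRAB box by the residue count, which may miss a diverged box. Among them, ZNF574 was at 57.2, 239.7 and 377.7 CPM (lowest, median and highest of 8 libraries) in OTS964 and at 33.7, 39.2 and 42.3 CPM in DMSO. Every OTS964 library was above every DMSO library, and the MDA-MB-231 pair, 99.6 and 57.2 CPM, was the lowest of the OTS964 group. The log2 fold change was 2.39 ± 0.27 (SE; adjusted p = 2.2e-06). ZNF646, which has 30 fingers, was at 62.1, 174.3 and 501.0 CPM in OTS964 and at 26.3, 39.0 and 47.8 CPM in DMSO (log2 fold change 2.26 ± 0.25, adjusted p = 2.2e-06). ZNF408, a retinal disease gene, was at 35.8, 100.3 and 132.4 CPM in OTS964 and at 16.9, 19.4 and 25.0 CPM in DMSO (2.22 ± 0.18, adjusted p = 9.1e-08). The ranges of these genes did not overlap either, and their responses were smallest in MDA-MB-231. In A375, Cal51, DLD1-labelled and MDA-MB-231 cells they were 2.24, 2.34, 3.04 and 1.22 for ZNF646 and 2.39, 2.39, 2.44 and 1.47 for ZNF408.

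ZNF281, which binds GC-rich promoter sequence and is known from the pluripotency network of stem cells, was at 71.2, 167.1 and 320.6 CPM in OTS964 and at 36.3, 49.2 and 55.3 CPM in DMSO (log2 fold change 1.90 ± 0.23, adjusted p = 5.3e-06). ZNF830, a single-exon gene whose product is linked to the spliceosome and to DNA repair, was at 26.2, 61.6 and 125.8 CPM in OTS964 and at 9.66, 17.6 and 23.2 CPM in DMSO (1.82 ± 0.16, adjusted p = 2e-07). Neither gene's ranges overlapped. ZNF526, ZNF581 and ZNF394 had log2 fold changes of 1.92, 1.83 and 1.80. By the residue count ZNF764 was the only KRAB gene of the 11. It had 1.76 ± 0.29 (adjusted p = 9.2e-05), with a within-line adjusted p of 0.049 in MDA-MB-231. ZNF428 and ZNF185 completed the set at 1.05 each; ZNF185 ranged from 0.886 to 108.2 CPM over the wild-type DMSO libraries, so its level varied widely between lines.

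The members that were lower in every wild-type line include some of the deepest losses. ZNF175, a KRAB gene on chromosome 19, was at 0 CPM in both OTS964 libraries of A375 and of Cal51, at 0 and 0.42 CPM in those labelled DLD1 and at 2.39 and 3.2 CPM in MDA-MB-231, against 5.54 to 23.3 CPM in the 8 DMSO libraries. Set against a floor of 3 counts per library, it was at least 28.7-fold lower in A375 and at least 26.4-fold lower in Cal51. ZNF197, another KRAB gene, was at 0.0839, 1.08 and 6.28 CPM in OTS964 and at 10.4, 15.2 and 19.1 CPM in DMSO (log2 fold change -3.62 ± 0.50, adjusted p = 1.8e-05). Both were least reduced in MDA-MB-231. ZNF263, singled out after its values were seen, was at 0 CPM in 7 of 8 OTS964 libraries. It was at 15.9 CPM in the first of those labelled DLD1, against 7.48 to 26.7 CPM in DMSO. By the same floor it was at least 67.7-fold lower in A375, 78.1-fold in Cal51 and 45.0-fold in MDA-MB-231. These bounds cover counting error only. Estimated counts could differ far more within a pair, as for ZNF263 in DLD1-labelled cells and for ZNF212 in A375 in OTS964 (9.0 and 0 CPM). The true losses may therefore be smaller, and the cause of such zeros was not tested.

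ZNF609, which is known to interact with the Integrator complex and the cohesin loader NIPBL, gave an even loss. It was at 16.7 and 16.3 CPM in A375, 10.8 and 8.94 CPM in Cal51, 12.1 and 17.4 CPM in DLD1-labelled and 6.6 and 9.04 CPM in MDA-MB-231 cells in OTS964. The DMSO libraries held 116.9 and 123.1 CPM, 71.5 and 72.7 CPM, 126.4 and 116.5 CPM, and 62.6 and 64.6 CPM in the same order of lines. No range overlapped in any line, and the log2 fold changes of the lines, -2.86, -2.86, -3.04 and -3.03, were within their SE of 0.21 to 0.22 of each other (across lines -2.90 ± 0.11, adjusted p = 3.1e-10). ZNF740 was at 1.92, 6.1 and 8.22 CPM in OTS964 and at 18.5, 44.8 and 76.4 CPM in DMSO (-2.91 ± 0.19, adjusted p = 1.5e-08). ZNF653 (-3.45 ± 0.24), ZNF775 (-3.32 ± 0.30), ZNF710 (-2.87 ± 0.23), ZNF500 (-2.74 ± 0.19), ZNF783 (-2.61 ± 0.15) and ZNF518A (-2.39 ± 0.22) had ranges that did not overlap, with adjusted p under 0.05 in each line. ZNF302 was lower too, at -2.88 ± 0.45.

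**Figure D3:**
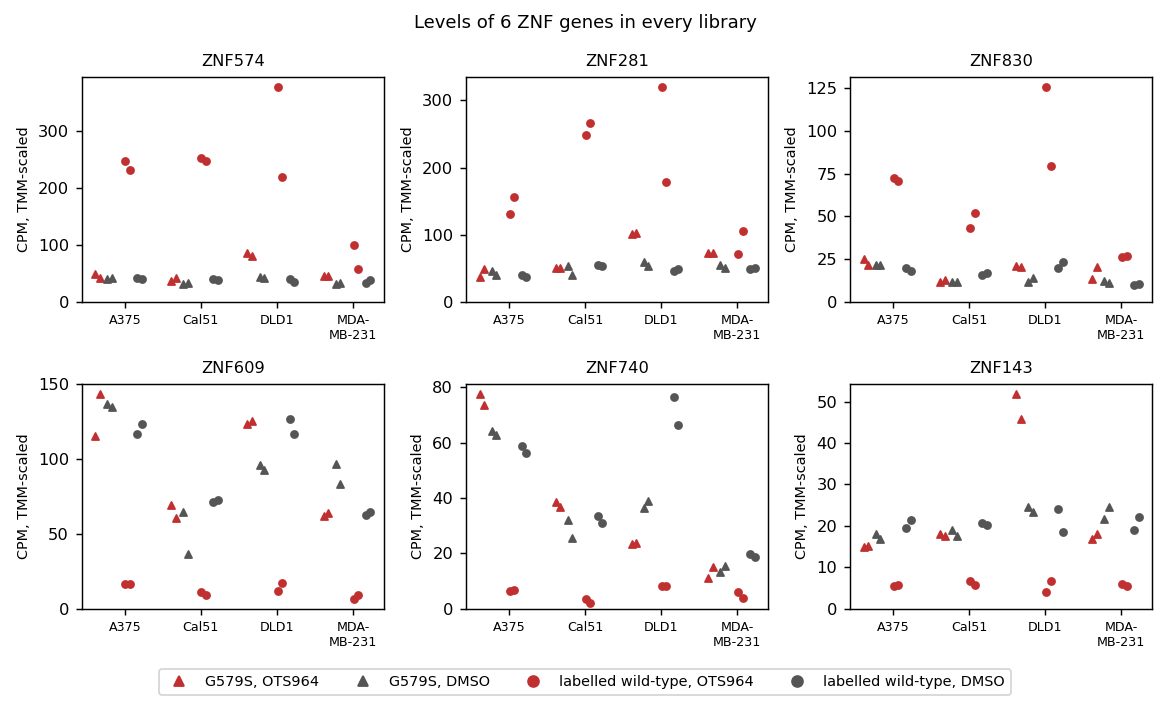
TMM-scaled CPM (vertical axes, each from 0) of 6 ZNF genes in all 32 libraries, by line, genotype (triangles G579S, circles labelled wild-type) and treatment (red OTS964, grey DMSO). Red circles stand above the grey ones for ZNF574, ZNF281 and ZNF830 and below them for ZNF609, ZNF740 and ZNF143, and the DLD1 G579S pair of ZNF143 in OTS964 stands highest in its panel.

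The 250 bases before the start of the leading genes in each direction, of those with a single entry in the RefSeq promoter table (GRCh38.p14), are shown because these genes lead the changes upward and downward. Each is written 5′ to 3′ on the plus strand, which is the gene's strand, and capitals mark any of the 6 motifs searched on both strands. ZNF646 lies at chr16:31074172-31074421, ZNF408 at chr11:46700781-46701030, ZNF175 at chr19:51571033-51571282 and ZNF197 at chr3:44624786-44625035.
ZNF646: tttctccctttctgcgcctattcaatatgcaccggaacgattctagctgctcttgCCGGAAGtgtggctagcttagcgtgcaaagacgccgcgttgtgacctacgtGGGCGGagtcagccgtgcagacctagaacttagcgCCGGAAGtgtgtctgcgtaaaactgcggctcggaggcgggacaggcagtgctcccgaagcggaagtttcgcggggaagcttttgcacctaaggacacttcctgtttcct
ZNF408: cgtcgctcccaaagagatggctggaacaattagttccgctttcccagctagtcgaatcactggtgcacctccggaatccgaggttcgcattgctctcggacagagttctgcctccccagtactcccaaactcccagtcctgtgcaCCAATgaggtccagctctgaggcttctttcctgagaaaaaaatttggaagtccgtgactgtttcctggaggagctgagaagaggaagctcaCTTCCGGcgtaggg
ZNF175: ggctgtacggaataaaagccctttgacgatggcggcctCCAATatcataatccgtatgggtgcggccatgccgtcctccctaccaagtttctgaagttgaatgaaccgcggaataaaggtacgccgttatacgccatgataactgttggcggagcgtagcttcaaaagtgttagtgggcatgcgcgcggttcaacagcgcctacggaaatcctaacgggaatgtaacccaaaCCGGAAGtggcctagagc
ZNF197: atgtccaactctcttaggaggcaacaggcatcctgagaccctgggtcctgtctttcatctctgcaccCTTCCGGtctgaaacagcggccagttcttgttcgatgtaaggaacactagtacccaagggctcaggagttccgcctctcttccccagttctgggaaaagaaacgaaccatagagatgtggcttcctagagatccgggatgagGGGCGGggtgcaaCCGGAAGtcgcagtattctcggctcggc
All 4 hold CCGGAAG, the core of an ETS-family site, on one strand or the other. ZNF646 and ZNF197 hold GGGCGG, the GC box, and ZNF408 and ZNF175 hold CCAAT.

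Over the 125 members with a single entry, CCGGAAG was in 32.8% of promoters (37.9% of the 29 higher and 30.4% of the 69 lower members), against 20.2% of the 5606 promoters of genes at 5 TPM or above and 8.90% of all 22114 in the table. GGGCGG was in 69.6% of member promoters (58.6% of higher, 69.6% of lower), against 72.9% and 40.9%. CCAAT was in 48.0% (41.4% of higher, 47.8% of lower), against 37.4% and 33.4%. ACTACAA, part of the ZNF143 site, was in 10.4% (6.9% of higher, 7.25% of lower), against 4.23% and 2.61%. TGACGTCA, the cyclic AMP response element, was in 7.2% of member promoters (10.3% of higher, 5.8% of lower), against 3.69% and 1.82%. TATAAA was in 4.0% (3.45% of higher, 4.35% of lower), against 4.69% and 11.8%. No motif of the 6 is contained in another, though neighbouring matches can share end letters, and these shares are descriptions of letters in a window, not of bound sites.

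The role lists are small, and their counts stand against 52.5% lower among all members and 35.3% lower among genes at 5 TPM or above. Of 8 promoter factors listed, 7 were members: 4 were lower, 1 higher and 2 not past the threshold in wild-type cells. ZNF143, an activator of many housekeeping and small RNA promoters, was at 4.11, 5.74 and 6.71 CPM in OTS964 and at 18.6, 20.5 and 24.1 CPM in DMSO, with no overlap and log2 fold changes between -1.98 and -1.74 in the 4 lines (across lines -1.82). ZNF148, which is related to ZNF281 and binds like GC-rich sequence, was at 1.52, 7.0 and 9.28 CPM in OTS964 and at 41.8, 47.4 and 55.1 CPM in DMSO (-2.81 ± 0.26, adjusted p = 3.5e-07). The pair thus moved in opposite directions in all 4 lines, with ZNF281 higher. ZNF335, part of a nuclear receptor coactivator complex, was lower at -0.76, and ZNF410, known for activating CHD4, at -0.51. The call of ZNF410 was lost without DLD1-labelled DMSO replicate 2 (-0.48) or OTS964 replicate 1 (-0.43), and without MDA-MB-231 DMSO replicate 1 (-0.41), DMSO replicate 2 (-0.48) or OTS964 replicate 1 (-0.42). It was also lost without all libraries labelled DLD1 wild-type (-0.53). ZNF76, the paralog of ZNF143, had -0.86 (adjusted p = 0.27) and ZNF384 0.15 (adjusted p = 0.69).

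The RNA and ribosome factors split. Of 8 members among 10 listed, 4 were lower, 3 higher and 1 not past the threshold. ZNF207, a kinetochore protein that binds BUB3, had the highest level of all members, 171 TPM on average in DMSO, and was slightly lower at -0.27 (adjusted p = 0.018). ZNF598, the ubiquitin ligase that marks collided ribosomes, was at 45.2, 51.9 and 72.1 CPM in OTS964 and at 85.9, 137.6 and 196.1 CPM in DMSO (-1.27), with no overlap. ZNF638, an RNA-binding nuclear protein, was lower at -1.60. ZNF385A, which binds double-stranded RNA, was lower at -3.52, but its median in DMSO was 1.11 CPM and its ranges overlapped. Only Cal51 held it at a clear level, 13.2 and 17.7 CPM in wild-type DMSO libraries and 0 and 1.63 CPM in OTS964. The other wild-type DMSO libraries had at most 1.36 CPM, so its call rests mainly on that line. ZNF622, a maturation factor of the large ribosomal subunit, was higher at 1.25 (adjusted p = 0.0083), and ZNF593, whose yeast counterpart takes part in export of that subunit, at 0.34 (adjusted p = 0.0084). Of the 3 that were higher, ZNF830 alone was also called higher when scaled by library totals, and ZNF593 then had -0.25. Without the libraries labelled DLD1 wild-type, the calls of ZNF622 (1.09) and ZNF593 (0.29) were lost. ZNF326, a subunit of the DBIRD complex that couples elongation to splicing, had 0.22 and did not pass; without MDA-MB-231 OTS964 replicate 1 it was called higher (0.33), and scaled by library totals it was called lower (-0.37).

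Other highly expressed members lay outside the role lists. ZNF511 (95.0 TPM on average in DMSO) was at 58.2, 65.4 and 90.6 CPM in OTS964 and at 43.0, 50.9 and 57.6 CPM in DMSO (log2 fold change 0.48), but its value was -0.11 when scaled by library totals, so its direction depends on the scaling. ZNF787 (67.8 TPM) was at 11.0, 22.0 and 39.9 CPM in OTS964 and at 63.4, 71.5 and 78.8 CPM in DMSO (-1.75). The ranges of neither overlapped.

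Of the partners of chromatin and corepressor complexes, 8 of 12 listed were members, and 5 were lower, 1 higher and 2 not past the threshold. ZNF644, which works with the histone methyltransferases G9a and GLP, was at 0, 4.39 and 16.6 CPM in OTS964 and at 23.3, 35.3 and 49.5 CPM in DMSO (-2.91). ZNF512 (-1.60), ZNF512B (-1.33), which binds the NuRD complex, and ZNF592 (-0.43) and ZNF687 (-0.40), both partners of ZMYND8, were lower. The call of ZNF592 was lost when only curated transcripts were summed (-0.18). ZNF217, a corepressor-binding oncogene product, was higher at 1.33, with 82.6, 261.5 and 465.9 CPM in OTS964 and 69.3, 99.4 and 134.7 CPM in DMSO, and the ranges overlapped. ZNF703 (0.35) and ZNF503 (-0.42), a pair of related corepressors, did not pass.

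All 3 members among 7 listed KRAB repressors were lower: ZNF274, which recruits SETDB1 (-1.75), ZNF93, which represses L1 elements (-1.30), and ZNF202 (-2.81). The value of ZNF202 was 0.01 when only curated transcripts were summed, so it depends on predicted transcript models. Among 4 SUMO and stress factors, ZNF746 (-1.74), ZNF277 (-1.55) and ZNF395 (-0.70) were lower, and ZNF451, a SUMO ligase, had -0.27 (adjusted p = 0.46).

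Partners of the KRAB pathway did not move as a block in wild-type cells. Of 22 listed genes, 8 were higher, 7 lower and 7 not past the threshold. TRIM28, which KRAB domains bind, was at 748.5, 1490.2 and 1997.1 CPM in OTS964 and at 580.4, 1041.0 and 1423.5 CPM in DMSO (log2 fold change 0.57). SETDB1 was at 3.96, 8.56 and 20.4 CPM in OTS964 and at 14.0, 23.9 and 44.8 CPM in DMSO (-1.28), and ATF7IP, which stabilises SETDB1, was lower at -1.79 with no overlap, 14.1 to 21.7 CPM in OTS964 and 53.6 to 78.2 CPM in DMSO. TASOR (-1.29) and MPHOSPH8 (-1.64), both of the HUSH silencing complex, were lower, while MORC2, which works with HUSH, was higher at 3.47 ± 0.47, with 6.45 to 28.4 CPM in OTS964 and 0.612 to 3.45 CPM in DMSO. HDAC1 (1.12), RBBP7 (0.80) and CHD3 (0.91) of NuRD were higher and MTA2 (-1.31) was lower. Scaled by library totals the list had 5 higher and 11 lower, and TRIM28 (-0.02), DNMT1 (-0.02) and HDAC2 (-0.17) were no longer called higher.

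Of the wild-type lines, MDA-MB-231 had the highest count of lower members. In A375, 79 members were lower and 50 higher (median -0.61; 45.8% of all genes tested and 61.4% of genes at 5 TPM or above were called). In Cal51, 83 were lower and 43 higher (median -0.73; 52.8% and 70.2% called), and in the libraries labelled DLD1 83 were lower and 37 higher (median -0.78; 50.0% and 65.7% called). In MDA-MB-231, 109 were lower and 15 higher (median -1.11; 46.5% of all genes called, 22.4% lower and 24.1% higher, and 62.5% of genes at 5 TPM or above, 27.9% lower and 34.6% higher). Of the 77 KRAB members, 55 were lower and 1 higher in MDA-MB-231, with a median of -1.36. Scaled by library totals, the counts lower and higher were 92 and 31 in A375, 102 and 22 in Cal51, 100 and 27 in DLD1-labelled and 139 and 7 in MDA-MB-231 cells. Over the 177 members, Spearman's rho between lines, a description over genes, was 0.88 for A375 with Cal51, 0.93 for A375 with the libraries labelled DLD1 and 0.90 for Cal51 with these, and 0.50, 0.63 and 0.61 for MDA-MB-231 with A375, Cal51 and DLD1-labelled cells. Over genes at 5 TPM or above the same values were 0.83, 0.92, 0.85, 0.65, 0.72 and 0.72.

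The difference itself was tested as the MDA-MB-231 response minus the mean response of the other 3 wild-type lines, a contrast chosen after the data were seen. It was negative in 68 members and positive in 23, so 51.4% of members were called against 24.4% of all genes tested (8.3% negative, 16.1% positive) and 32.9% of genes at 5 TPM or above (10.6% negative, 22.2% positive). Without the first OTS964 library of MDA-MB-231 the counts were 62 and 18, and without the second 75 and 23. For each of the other lines set against the rest the counts negative and positive were 3 and 22 for A375 (4.67% of all genes tested and 6.4% at 5 TPM or above called), 5 and 21 for Cal51 (13.9% and 19.5%) and 5 and 14 for the libraries labelled DLD1 (4.85% and 6.78%). In 22 members the lines were called in opposite directions. In 21 of these MDA-MB-231 was called lower while some other line was called higher, whatever the remaining lines did. The share of all genes with opposite calls was 4.4%, and 6.09% at 5 TPM or above. In the MDA-MB-231 contrast the 24 ZBTB genes had 14 negative and 3 positive, with a median of -1.59 against -0.53 for the members. Of 7 ZSCAN genes 2 were negative and 1 positive, and of 5 ZFP genes 1 was negative and 2 positive. The lean toward negative values in MDA-MB-231 was thus not particular to the members.

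**Figure D4:**
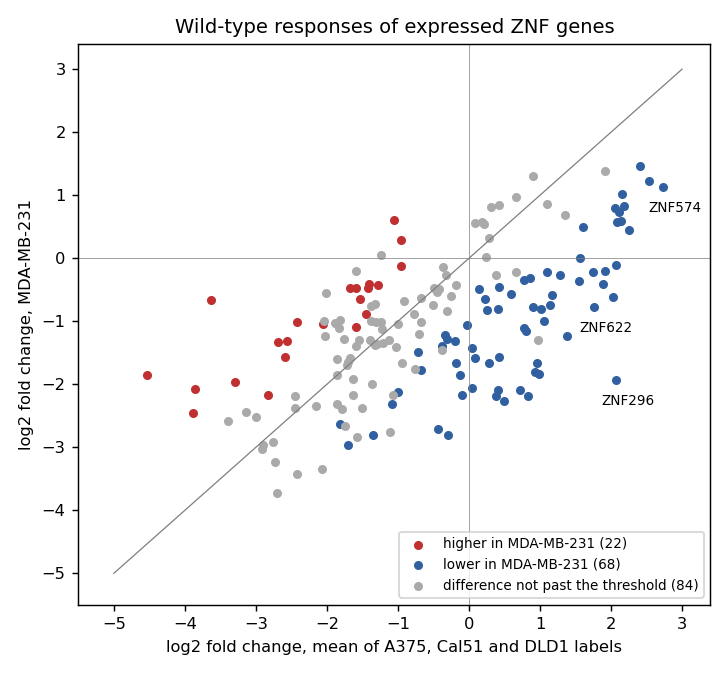
Log2 fold change (OTS964 over DMSO) in MDA-MB-231 (vertical axis) against the mean of the A375, Cal51 and DLD1-labelled wild-type cells (horizontal axis) for the expressed ZNF genes, with the line of equality; 3 members lie outside the plotted range. The 68 genes with a more negative response in MDA-MB-231 lie below the line, ZNF296 farthest among the labelled ones, and the genes with a more positive response lie at the left, where the other lines lost most.

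ZNF296 showed the widest opposition. ZNF296 has no KRAB box by the residue count. In OTS964 it was at 33.0 and 26.0 CPM in A375, 26.9 and 32.5 CPM in Cal51, 7.27 and 18.7 CPM in DLD1-labelled cells and 2.64 and 2.2 CPM in MDA-MB-231. In DMSO it was at 6.48 and 5.9, 6.26 and 6.04, 3.49 and 4.6, and 9.26 and 9.21 CPM in the same order. The log2 fold changes were 2.25, 2.27, 1.68 and -1.93, each past the threshold, and the difference was -4.00 ± 0.38 (adjusted p = 2.8e-07). ZNF622 went the same way, at 292.4 and 287.5 CPM in A375, 110.3 and 109.6 CPM in Cal51, 150.4 and 299.2 CPM in DLD1-labelled cells and 33.5 and 25.9 CPM in MDA-MB-231 in OTS964. Its DMSO levels were 73.6 and 79.7, 29.9 and 30.8, 77.0 and 80.8, and 52.7 and 48.4 CPM, and the difference was -2.53 ± 0.24 (adjusted p = 3e-07). For ZNF217 the line responses were 1.81, 1.78, 1.63 and -0.22, with a difference of -1.96.

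Other members behaved like this in part. ZNF180 was higher in A375 (1.80) and lower in MDA-MB-231 (-1.67), with a difference of -2.63 ± 0.36. ZNF195 had a difference of -3.01 ± 0.80, with line responses of 1.75, 0.17, 0.58 and -2.18 in A375, Cal51, DLD1-labelled and MDA-MB-231 cells, and ZNF675 a difference of -2.82 ± 0.69, with 1.66, 0.75, 0.56 and -1.83. For both, the responses of A375 and MDA-MB-231 passed the threshold and those of Cal51 and the DLD1-labelled cells did not. The DLD1-labelled OTS964 pair was far apart for both genes, at 1.43 and 26.6 CPM for ZNF195 and at 1.82 and 20.5 CPM for ZNF675. ZNF322 was higher in A375 (1.10) and in the libraries labelled DLD1 (0.82) and lower in MDA-MB-231 (-2.27). ZNF503 was higher in Cal51 (1.33) and lower in A375 (-0.77) and MDA-MB-231 (-2.06). Of the genes named as shared by all lines, ZNF609, ZNF148 and ZNF143 had no called difference in MDA-MB-231 (-0.11, adjusted p = 0.92; -0.50, adjusted p = 0.45; and 0.00, adjusted p = 1.0), while ZNF574 did, at -1.60 ± 0.24 (adjusted p = 4.7e-05).

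In G579S cells few members passed the threshold outside DLD1. Across the 4 G579S lines, 4 members were higher (ZNF207, ZNF317, ZNF408 and ZNF574) and 4 lower (ZNF580, ZNF655, ZNF672 and ZNF771), 4.52% of members against 2.61% of all genes tested and 3.73% of genes at 5 TPM or above, with a median of 0.08; 49 had an unadjusted p under 0.05. ZNF580 was at 8.4, 21.6 and 36.8 CPM in G579S cells in OTS964 and at 24.5, 29.5 and 56.7 CPM in G579S cells in DMSO (-0.77, adjusted p = 0.026), and ZNF317, a KRAB gene, at 42.7, 51.8 and 146.1 CPM in OTS964 and at 34.2, 39.5 and 58.4 CPM in DMSO (0.62, adjusted p = 0.033). The ranges of both overlapped. The others named were ZNF655 at -0.60 (adjusted p = 0.022), ZNF771 at -0.56 (adjusted p = 0.043), ZNF408 at 0.50 (adjusted p = 0.015) and ZNF574 at 0.45 (adjusted p = 0.032). This count varied with the setting. It was 1 without the 4 DLD1 G579S libraries, an alternative added after the data were seen, 0 with the replicate number as a block and 26 by DESeq2. Leaving out single libraries of the G579S cells gave 1 (A375 DMSO replicate 1, DLD1 DMSO replicate 1 or DLD1 OTS964 replicate 1), 2 (the second replicate of either DLD1 group), 3 (A375 DMSO replicate 2), 4 (Cal51 OTS964 replicate 2), 5 (either A375 OTS964 replicate or MDA-MB-231 DMSO replicate 2) and 19 (Cal51 DMSO replicate 2). The 6 genes with values given here lost their call in 50 of their 144 alternatives in all.

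By line, edgeR's quasi-likelihood test called 0 members in A375, 0 in Cal51 and 0 in MDA-MB-231 G579S cells, where 0.657%, 0.391% and 0.307% of all genes tested and 0.923%, 0.509% and 0.403% of genes at 5 TPM or above were called. Unadjusted p under 0.05 was found for 11, 10 and 23 members, and DESeq2 called 6, 3 and 6. The Cal51 count was 19 without replicate 1 of the DMSO group. In DLD1 G579S cells 37 members were higher and 12 lower, 27.7% of members against 23.5% of all genes tested (10.8% higher, 12.7% lower), with a median of 0.32. Of genes at 5 TPM or above, 32.7% were called, 15.9% higher and 16.8% lower, so the members' share of calls lay below theirs. With any of its 4 libraries left out, 27 to 32 members were called in place of 49. Those refits also estimated the spread otherwise, as described below. Scaling by library totals gave 18 higher and 26 lower, so the direction of the members as a group in this line depends on the scaling. The median of all genes in this contrast was 0.00 under TMM and -0.23 under library totals, and that of the members stood 0.32 and 0.30 above it.

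The wild-type response minus the G579S response, tested across lines, was negative in 91 members and positive in 29, with a median of -0.85; 50.1% of all genes tested were called, 25.8% negative and 24.3% positive, and 65.8% of genes at 5 TPM or above, 31.7% negative and 34.1% positive. The members' share of calls, 67.8%, was near that of genes at such levels. With the 8 DLD1 libraries left out, 108 members were called in place of 120. ZNF609 was at 60.7, 92.3 and 143.3 CPM in G579S cells in OTS964 and at 36.2, 94.2 and 136.5 CPM in G579S cells in DMSO, and the difference of responses was -2.99. ZNF574 was at 37.0, 45.0 and 86.0 CPM in G579S cells in OTS964 and at 31.9, 36.8 and 43.0 CPM in G579S cells in DMSO, and the difference was 1.88. The DLD1 G579S pair in OTS964 supplied the highest value of ZNF574 there.

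In DLD1 the responses of the 2 genotype labels can be set side by side. Of the 37 members higher in G579S cells, 17 were also higher and 13 were lower in the libraries labelled wild-type, and 7 were not called there. Of the 12 lower in G579S cells, 0 were higher and 11 lower in those labelled wild-type. The shares of all genes with such joint calls were not computed, so whether these counts are unusual cannot be told. The counts also depend on the scaling, since library totals gave 18 higher and 26 lower members in DLD1 G579S cells. Spearman's rho between the responses was 0.36 over the 177 members and 0.24 over genes at 5 TPM or above. The 13 with opposite calls include promoter factors. ZNF143 was at 51.9 and 45.9 CPM in OTS964 and at 24.6 and 23.4 CPM in DMSO in DLD1 G579S cells (log2 fold change 1.03 ± 0.17, adjusted p = 0.00025), and at 4.11 and 6.71 CPM in OTS964 and at 24.1 and 18.6 CPM in DMSO in DLD1 libraries with the wild-type label (-1.98 ± 0.19, adjusted p = 3.6e-08). ZNF317 had 1.40 in G579S and -1.74 in those labelled wild-type, ZNF410 1.21 and -0.58, ZNF282 1.00 and -1.73, and ZNF207 0.97 and -0.29. The others were ZNF330, ZNF146, ZNF45, ZNF480, ZNF668, ZNF561, ZNF592 and ZNF367.

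Few members differed by genotype without OTS964 outside DLD1. In DMSO, G579S minus wild-type was positive in 6 and negative in 3 members in A375 (9.77% of all genes tested and 12.2% at 5 TPM or above called), 3 and 7 in Cal51 (17.0% and 22.3%) and 5 and 4 in MDA-MB-231 (7.3% and 9.64%). In DLD1 it was positive in 26 and negative in 33 members (33.3%; 49.2% of all genes tested and 54.7% at 5 TPM or above). ZNF302, ZNF512, ZNF559 and ZNF93 were at 0 in all 4 DLD1 G579S libraries, and ZNF626 was at 0 in all 8 Cal51 libraries of both genotypes.

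The number of exons in a gene's annotated transcript, which the membership rule did not use, went with the wild-type response across lines, but not in order in MDA-MB-231 alone. Of 18 members with 1 to 2 exons, 3 were lower and 8 higher (median log2 fold change 0.59). Of 67 with 3 to 4 exons 28 were lower and 17 higher (-0.49), of 48 with 5 to 6 exons 28 were lower and 8 higher (-1.15), and of 44 with 7 or more exons 34 were lower and 1 higher (-1.30). As shares, 16.7%, 41.8%, 58.3% and 77.3% of members were lower and 44.4%, 25.4%, 16.7% and 2.27% higher from few to many exons. Of the other genes at 5 TPM or above, 17.3%, 24.2%, 28.7% and 40.4% were lower and 47.2%, 48.4%, 44.6% and 34.4% higher. Their medians were 0.55, 0.42, 0.29 and -0.11 in the same bins, and in the bin of 1 to 2 exons the members' shares were near theirs. Members with 1 to 2 exons thus had a median near that of other genes, and those with 3 or more exons lay below them. In MDA-MB-231 alone the member medians were -0.41, -1.16, -1.41 and -1.02 from few to many exons and those of other genes 0.01, 0.25, 0.28 and 0.06, so members of every bin lay below other genes there. The members higher in all 4 lines had a median of 3 exons, and 9 of the 11 had at most 3. The members lower in all 4 lines had a median of 6, and 40 of the 58 had at least 5. Over all 177 members the median was 5 exons, 50 had at most 3 and 92 had at least 5. ZNF185, with 23 exons, was the exception among the higher members with 7 or more. As a description over genes, Spearman's rho of the response with exon number was -0.39 over members and -0.21 over 9229 other genes, with the genomic span -0.37 and -0.29, with coding length -0.05 and -0.29, and with the number of fingers 0.11 over members. Members on chromosome 19 had 34 lower and 14 higher of 68 (median -0.84), and those elsewhere 59 lower and 20 higher of 109 (-0.60).

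**Figure D5:**
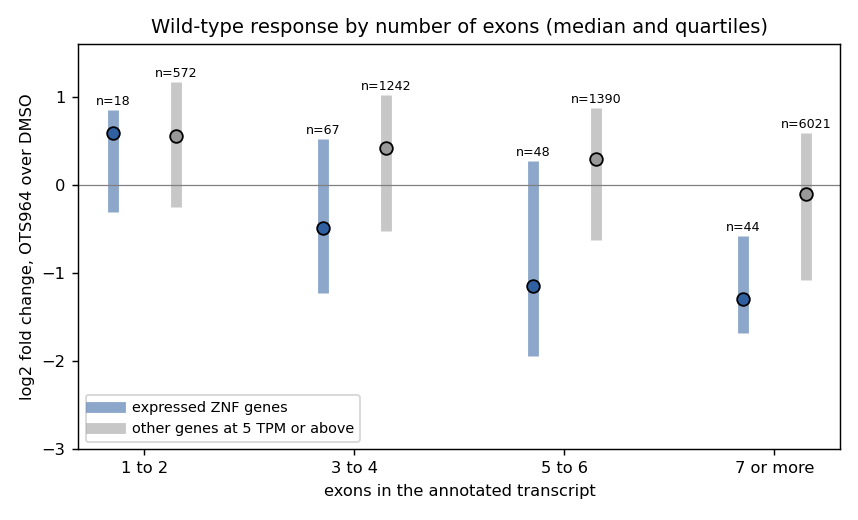
Log2 fold change in cells labelled wild-type (OTS964 over DMSO, vertical axis) by number of exons (horizontal axis), as the median (circle) and quartiles (bar) of the expressed ZNF genes (blue) and of the other genes at 5 TPM or above (grey), with the number of genes over each bar. The blue medians are 0.59, -0.49, -1.15 and -1.30 from few to many exons and the grey ones 0.55, 0.42, 0.29 and -0.11.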

How the data were processed

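Libraries were made from RNA purified on columns with a SMARTer mRNA kit, per the labels' protocols. The authors deposited, for each transcript, estimated counts of reads and TPM, made with a tool not given in the sources used here; the submitters' processing notes name only mouse builds, GRCm38 and mm10, while the transcripts are human. Of 87398 transcripts, 42587 (48.7%) matched a human gene and held 87.6% of reads on average. The estimated counts as deposited were summed per gene and rounded to whole numbers, and the deposited TPM were summed per gene to choose members.

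Tests were edgeR 4.0.16 quasi-likelihood fits in R 4.3.3 with TMM scaling, 14318 genes past the low-count filter, Benjamini-Hochberg adjustment over all of them and a threshold of 0.05: a fit of 16 groups within lines and fits with line as a block across lines. The fits were tested on simulated data with few changed genes, balanced in direction, and a fixed spread. That test does not cover a response as wide as the wild-type one. DESeq2 1.42.0 was an alternative, with other scalings, memberships, transcripts and left-out libraries. Refits without a single library estimated the trend of spread with level on only a part of the genes. The refits of the MDA-MB-231 difference from the other lines used all genes. TMM factors were 0.701 to 0.832 in wild-type OTS964 and 1.09 to 1.16 in wild-type DMSO libraries. CPM are TMM-scaled.

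The members, gene lists and role lists were chosen with earlier results of these data known. Named genes were the 12 most changed in each direction (11 upward) among members called alike in all 4 wild-type lines, the 6 highest in DMSO, the 6 largest G579S changes, the 6 widest opposite line responses and all role-list members. KRAB boxes (at least 13 of 22 fixed residues) and fingers were read from translated GENCODE coding sequence, since no protein table was used. Floors cover counting error only. Replicate pairs of a group differed by a chi-square of 5.68 to 86.86 per degree of freedom, so none was a single library deposited again. The pairs furthest apart were Cal51 G579S in DMSO (86.86), MDA-MB-231 wild-type in OTS964 (85.97) and DLD1-labelled wild-type in OTS964 (47.84). The next was A375 G579S in OTS964 (25.39), so contrasts with the first of these groups rest on noisier pairs. Same replicate numbers did not pair the samples (r of -0.08 to 0.14).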

Additional observations from a re-analysis of the deposited data

Results flagged for a closer look

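The wild-type response minus the G579S response across lines, tested as an interaction, was past the threshold and negative in 91 members and positive in 29. Among the named genes that were higher in all 4 wild-type lines, this difference on the log2 scale was 1.88 for ZNF574, 1.98 for ZNF646, 1.67 for ZNF408, 1.58 for ZNF526, 1.5 for ZNF281, 1.57 for ZNF581, 1.43 for ZNF830, 1.33 for ZNF394, 1.57 for ZNF764, 0.88 for ZNF428 and 1.05 for ZNF185. Among those that were lower in all 4, it was -4.75 for ZNF175, -3.79 for ZNF197, -3.02 for ZNF653, -3.38 for ZNF775, -2.91 for ZNF740, -2.99 for ZNF609, -2.63 for ZNF302, -2.94 for ZNF710, -3.03 for ZNF148, -2.69 for ZNF500, -2.32 for ZNF783 and -2.17 for ZNF518A.

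Each labelled wild-type line's response was also set against the mean of the other 3, as its difference from them, a contrast chosen after the data were seen. It was negative and positive in 3 and 22 members for A375, 5 and 21 for Cal51, 5 and 14 for the libraries labelled DLD1 and 68 and 23 for MDA-MB-231. For MDA-MB-231 the difference on the log2 scale was -4.00 for ZNF296, -3.01 for ZNF195, -2.82 for ZNF675, -2.63 for ZNF180, -2.09 for ZNF503 and -2.76 for ZNF322.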

How the results depend on the processing

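Counts of called members, both directions together, kept within 1.5 times of those reported unless named here. Scaling by library totals gave 20 higher members across wild-type lines, 31, 22 and 7 in A375, Cal51 and MDA-MB-231, and 18 higher and 26 lower in DLD1 G579S cells, where DESeq2 gave 20 lower. It turned across-line wild-type values to -0.25 for ZNF593, -0.11 for ZNF511, -0.37 for ZNF326, -0.44 for ZNF384, -0.25 for ZNF703, -0.20 for ZNF180, -0.40 for ZNF195 and -0.20 for ZNF675, of which ZNF593 and ZNF511 were called in the reported fit. Curated transcripts alone turned ZNF202 to 0.01 and lost the call of ZNF592 (-0.18). Membership at 10 TPM or above, a smaller list, gave 58 called members across wild-type lines (21 higher, 37 lower), 56 for the difference of responses, 59, 60, 58 and 56 in A375, Cal51, DLD1-labelled and MDA-MB-231 wild-type cells and 29 in DLD1 G579S cells. Membership at 2 TPM or above gave 213 (163 lower), 196, and 200, 198, 198 and 203 in the same order of wild-type lines. Across G579S lines DESeq2 called 26, the replicate block 0 and the data without DLD1 G579S 1. In A375 G579S cells RLE size factors and length-scaled counts each called 1 and DESeq2 6; in Cal51 and MDA-MB-231 G579S cells DESeq2 called 3 and 6.

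Leaving out each library in turn gave 120 to 130 called members across wild-type lines (31 to 39 higher, 89 to 94 lower), 1 to 19 across G579S lines and 117 to 124 for the difference. In wild-type cells the counts were 100 to 106 in A375, 109 to 115 in Cal51, 112 to 124 in DLD1-labelled and 103 to 120 in MDA-MB-231. In G579S cells they were 0 to 0, 0 to 19, 27 to 32 and 0 to 0. Since these refits took the trend of spread from a part of the genes, the effects of a lost library and of the changed fit cannot be told apart. Among values that were not called, ZNF195 also changed sign under the replicate block (-0.10), without the DLD1-labelled wild-type libraries (-0.01) and without single libraries (-0.43 to 0.56). So did ZNF384 (-0.08 to 0.29), ZNF675 (-0.08 to 0.69) and ZNF322 (-0.26 to 0.24) without single libraries; ZNF195, ZNF384 and ZNF675 were at -0.43, -0.08 and -0.08 without DLD1-labelled OTS964 replicate 2. Over all alternatives for the named genes' wild-type values, 19 changed sign, 11 lost their call, 10 gained it and 1328 kept direction and call. The replicate numbers do not pair the samples, and the replicate block left every other count within 1.5 times. The causes were not tested. With 2 libraries a group, small responses in single G579S lines may lie below what these tests can call.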
